A study of Mus musculus with 8 samples.

Results

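Neurofilaments and the proteins that build and steer the growing axon were followed in sympathetic ganglia of mouse embryos that lack or have reduced *Isl1*, a LIM homeodomain transcription factor. The 10 genes, *Nefl*, *Nefm*, *Nefh*, *Ina*, *Prph*, *Gap43*, *Stmn2*, *Mapt*, *Map2*, and *Map1b*, were chosen by symbol for what their proteins do. Earlier results of these data were known when they were chosen. All 10 were listed at both stages, among 13506 genes at E11.5 and 13413 genes at E14.5, of which 12727 were shared. RNA-seq was done on dissected sympathetic ganglia of 4 groups with 2 libraries each. At E11.5, *Isl1* CKO embryos (*Wnt1-Cre; Isl1 f/f*, which the labels call Isl1-/-) were compared with *Wnt1-Cre; Isl1+/+* controls, and both groups carried Cre and a *Rosa26-tdTomato* reporter, so that the ganglia could be found by their fluorescence. *Wnt1-Cre* acts in neural crest lineages, from which both the neurons and the glia of these ganglia come, so the deletion is not limited to neurons. At E14.5, *Isl1* hypomorphic embryos (*Isl1 f-neo/f-neo*, labelled as an Isl1 mutation) were compared with wildtype embryos, with no Cre. Ganglia of about 10 embryos by the labels, and of 10 to 20 by the methods, were pooled for RNA within a genotype. Each gene has 1 FPKM value per group (fragments scaled by transcript length and by the number of mapped fragments), which the authors computed from both libraries together. The spread between libraries and the depth are therefore unknown, and no test was made. The authors' own p-values were not used, so no difference below has a replicate check.

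Neurofilaments are the intermediate filaments of neurons. They are assembled from a light (*Nefl*), a medium (*Nefm*), and a heavy (*Nefh*) chain together with alpha-internexin (*Ina*) and, in peripheral neurons, peripherin (*Prph*), and they fill the axon and set its calibre. Axon growth also depends on microtubules, which are bundled and stabilised by tau (*Mapt*) in axons, MAP2 (*Map2*) mainly in dendrites, and MAP1B (*Map1b*) in growing axons, whereas stathmin-2 (*Stmn2*) binds tubulin and promotes its turnover in growth cones, and GAP-43 (*Gap43*) is a membrane protein of the growth cone that acts on its actin.

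In the mm9 annotation (NCBIM37, GENCODE), the *Nefl* and *Nefm* genes are neighbours on chromosome 14, where *Nefl* spans positions 68701920 to 68707152 on the plus strand and *Nefm* spans 68700647 to 68742903 on the minus strand. Exons of the 2 genes overlap at 68701920 to 68703027 through a second, longer *Nefm* transcript. The overlap covers 1108 bases, which is 32.8% of the exon bases of *Nefl* and 19.2% of those of *Nefm*, and the strandedness of the libraries is not given in the sources used here, so reads from this stretch may not have been assigned to the right gene of the pair. *Ina* (chromosome 19, 47089188 to 47099817, plus strand) shares 456 exon bases, 14.1% of its total, with *Nt5c2* on the opposite strand, which was listed at only 18.5 to 31.3 FPKM. For *Map2* the overlap with a gene on the other strand was 0.754% of its exon bases. *Prph* (chromosome 15, 98885605 to 98889409, plus strand), *Nefh*, *Gap43*, *Stmn2*, *Mapt*, and *Map1b* overlapped no other gene's exons. *Mapt* and *Map2* have 14 and 25 annotated transcripts, and 1 value per gene cannot separate their isoforms.

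Promoter sequences of *Prph*, *Ina*, *Map1b*, and *Map2* were taken from RefSeq (GRCm38.p6). The reference used held promoters of these 4 genes only. For the other 6, *Nefl*, *Nefm*, and *Nefh* among them, no sequence was available to set beside these. Those of *Prph* and *Ina*, the 2 filament genes among the 4, are shown here as the 250 bases before the start, 5′ to 3′ on the gene's strand. They lie at chr15:99054924-99055173 (plus strand) and chr19:47014431-47014680 (plus strand). Capitals mark TATAAA and GGGCGG in either orientation.
Prph: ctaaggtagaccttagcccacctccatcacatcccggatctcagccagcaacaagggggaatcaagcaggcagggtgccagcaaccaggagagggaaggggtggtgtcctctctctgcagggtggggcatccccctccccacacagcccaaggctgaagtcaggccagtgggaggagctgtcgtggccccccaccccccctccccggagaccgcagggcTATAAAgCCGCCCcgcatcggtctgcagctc
Ina: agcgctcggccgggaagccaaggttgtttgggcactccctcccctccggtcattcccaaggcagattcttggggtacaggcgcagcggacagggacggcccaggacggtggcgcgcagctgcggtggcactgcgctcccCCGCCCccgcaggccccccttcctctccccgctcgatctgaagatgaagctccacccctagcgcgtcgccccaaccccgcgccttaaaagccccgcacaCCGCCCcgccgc
The *Prph* window holds 1 TATAAA, with its first base 31 bases before the start, and 1 GGGCGG on the opposite strand. In the *Ina* window there are 2 copies of GGGCGG, both on the opposite strand, and no TATAAA. Of 32851 windows of this length, 12.4% hold TATAAA and 32.7% hold GGGCGG on either strand. The sequence TAAT, the core that homeodomain proteins bind, occurs in 54.9% of all windows and in none of the 4 windows here. The 4 windows were rich in G and C, at 65.2% for *Prph*, 66.4% for *Map1b*, 70.8% for *Ina*, and 81.2% for *Map2*, against a median of 52.4% over all windows. These matches are descriptions of the letters and not of binding.

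The targeted gene was checked first. *Isl1* was listed at 133 FPKM in controls and 40.0 FPKM in CKO ganglia at E11.5, which is 30.2% of control, and at 162 FPKM in wildtype and 83.1 FPKM in hypomorphic ganglia at E14.5, which is 51.3% of wildtype. Markers of several other cells differed with the genotype at E11.5. Over all 13506 genes, 18.9% passed 1.5-fold upward in CKO ganglia and 12.9% downward. For glia and neural crest, 8 of 9 genes passed 1.5-fold upward in CKO ganglia and the summed FPKM went from 184 to 404, and of 8 mesenchyme genes 5 were higher and the sum went from 579 to 1008. For 13 red blood cell genes, 9 of them in this comparison, 8 were higher and their share of all FPKM was 2.29% in controls and 11.2% in CKO ganglia. The ninth, the embryonic globin gene *Hbb-y*, was listed at 7552 FPKM in controls and at 0 in CKO ganglia, and without it the shares were 0.699% and 11.2%. Among 7 endothelial genes 1 was higher, near the share over all genes, with sums of 68.7 and 87.3 FPKM. Of 11 sensory neuron genes 5 were in the comparison and 3 were higher, with sums of 16.0 and 20.1 FPKM. These 3 stayed under 5 FPKM in both groups, and *Pou4f1*, a defining factor of sensory neurons, was listed at 0.676 and 1.57 FPKM. Of 5 motor neuron genes, only *Slc5a7* and *Chat* were in the comparison, and *Mnx1*, *Lhx3*, and *Olig2* were not listed. *Slc5a7*, the choline transporter, was higher, at 2.64 and 14.5 FPKM, whereas *Chat* was lower in value. The paper counts *Chat* among the cholinergic genes of sympathetic ganglia, so these 2 genes do not mark motor neurons alone. At E14.5 the sums went from 374 to 420 FPKM for glia and neural crest, from 1409 to 1569.9 for mesenchyme, and from 7.66 to 7.91 for sensory neurons, with a red blood cell share of 1.25% and 1.55%. The endothelial sum was 89.7 in wildtype and 124 FPKM in hypomorphic ganglia, and the median log2 ratio was 0.46, beside 0.29 at E11.5. At E14.5, 1 of the 7 genes passed 1.5-fold upward, beside 2.89% of all genes. The ganglia were sympathetic by their markers, since 9 of 9 sympathetic genes were listed in every group, among them *Dbh*, the enzyme that makes noradrenaline, at 543, 594, 608, and 568 FPKM in E11.5 control, CKO, E14.5 wildtype, and hypomorphic ganglia. In such bulk tissue, fewer neurons and less RNA per neuron cannot be told apart, and the part that other cells play in the results below was not tested.

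Neurofilament and growth cone transcripts were among the most abundant of the ganglion. In E11.5 control ganglia the order was *Nefl* (1008 FPKM), *Nefm* (724), *Stmn2* (598), *Gap43* (585), *Map1b* (205), *Ina* (159), *Prph* (149), *Map2* (64.7), *Mapt* (42.7), and *Nefh* (3.66). *Nefl* ranked 52nd and *Nefh* 10438th of all genes, so the heavy chain stood far below the other chains. In E14.5 wildtype ganglia the order was *Gap43* (1235 FPKM), *Stmn2* (1182), *Nefm* (1130), *Nefl* (1027), *Prph* (921), *Ina* (507), *Map1b* (360), *Mapt* (188), *Map2* (94.6), and *Nefh* (5.48). *Gap43* had become the highest of the 10 at rank 16, and *Prph* had moved past *Map1b* and *Ina* to rank 34. With no spread known, neighbours in these orders cannot be told apart, as for *Stmn2* and *Gap43* at either stage. Summed over the 10 genes, the level was 3539.9 FPKM in E11.5 controls, 2115 in CKO ganglia, 6650.2 in E14.5 wildtype, and 6110.4 in hypomorphic ganglia, or 0.743%, 0.343%, 1.48%, and 1.39% of all FPKM. The FPKM of all genes summed to 476289 in E11.5 controls and 617263 in CKO ganglia, so the share differs more than the level does.

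**Figure D1:**
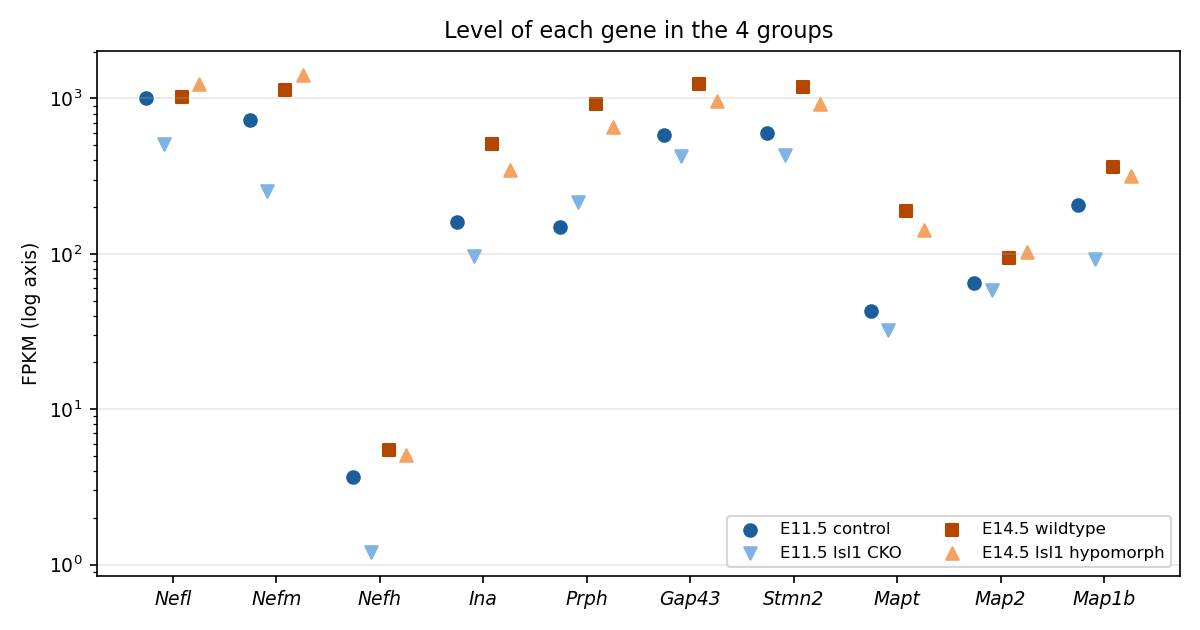
FPKM of the 10 genes, on a log axis, in the 4 groups (E11.5 control and *Isl1* CKO, E14.5 wildtype and *Isl1* hypomorph); each point is the authors' single value for 2 libraries, so there are no error bars. At E11.5 the CKO value lies under the control value for 9 of 10 genes and above it for *Prph* (149 and 215 FPKM), and *Nefh* lies between 1.21 and 5.48 FPKM in every group.

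At E11.5 the question was how the values of this set differed between *Isl1* CKO and control ganglia. In *Isl1* CKO ganglia 9 of 10 genes were below control, 5 of them by at least 1.5-fold (*Nefl*, *Nefm*, *Nefh*, *Ina*, and *Map1b*), and none was higher by that much. Over all 13506 genes the same limit was passed downward by 12.9% and upward by 18.9%. The 10 genes were chosen with earlier results known, so these shares are set beside them as a description only. The median log2 ratio of the 10 genes was -0.59, with a range of -1.52 to 0.53, and that of all genes was 0.05.

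All 3 neurofilament chains passed 1.5-fold downward, with *Nefh* and *Nefm* the lowest of the 10 genes. *Nefm* was listed at 724 FPKM in controls and 253 FPKM in CKO ganglia, a log2 ratio of -1.52, and only 1.98% of genes had a lower ratio. *Nefh* had the same ratio, -1.52, from 3.66 to 1.21 FPKM, but at a level where a small absolute difference gives a large ratio. *Nefl* was at 1008 and 507 FPKM, a log2 ratio of -0.99. The light chain was thus at 50.3% of control and the medium chain at 35.0%, so the 2 most abundant chains did not stand in the same proportion in the 2 groups. Alpha-internexin, which can assemble with all 3 chains, was at 159 and 96.4 FPKM, a log2 ratio of -0.72, or 60.5% of control.

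*Prph* was the only gene of the 10 with a higher value in CKO ganglia. It was listed at 149 FPKM in controls and 215 FPKM in CKO ganglia, a 1.44-fold difference (log2 ratio 0.53) that did not reach 1.5-fold, and 78.7% of all genes had a lower ratio. Peripherin is made mainly by neurons with axons outside the brain and spinal cord, sensory and sympathetic neurons among them. Of the 5 sensory neuron markers, the most abundant, *Prrxl1*, was lower in value in CKO ganglia, at 10.1 and 7.98 FPKM. The other 4 were higher in value but under 5 FPKM in both groups, among them *Neurog2* at 0.212 and 2.70 FPKM. The part of sensory neurons in the *Prph* value was not tested.

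The growth cone pair and the microtubule proteins spread over a wide range. *Map1b*, whose protein is rich in growing axons, was at 205 and 93.0 FPKM, a log2 ratio of -1.14 and 45.4% of control. *Gap43* (585 and 425 FPKM) and *Stmn2* (598 and 433 FPKM) both had a log2 ratio of -0.46 and stayed short of 1.5-fold. *Mapt* was at 42.7 and 32.6 FPKM, with a log2 ratio of -0.39. *Map2* was nearest to control, at 64.7 and 58.7 FPKM, with a log2 ratio of -0.14, and relative to the pan-neuronal genes described below its ratio was 0.09. The 3 microtubule-binding genes therefore ranged from 45.4% to 90.6% of control.

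**Figure D2:**
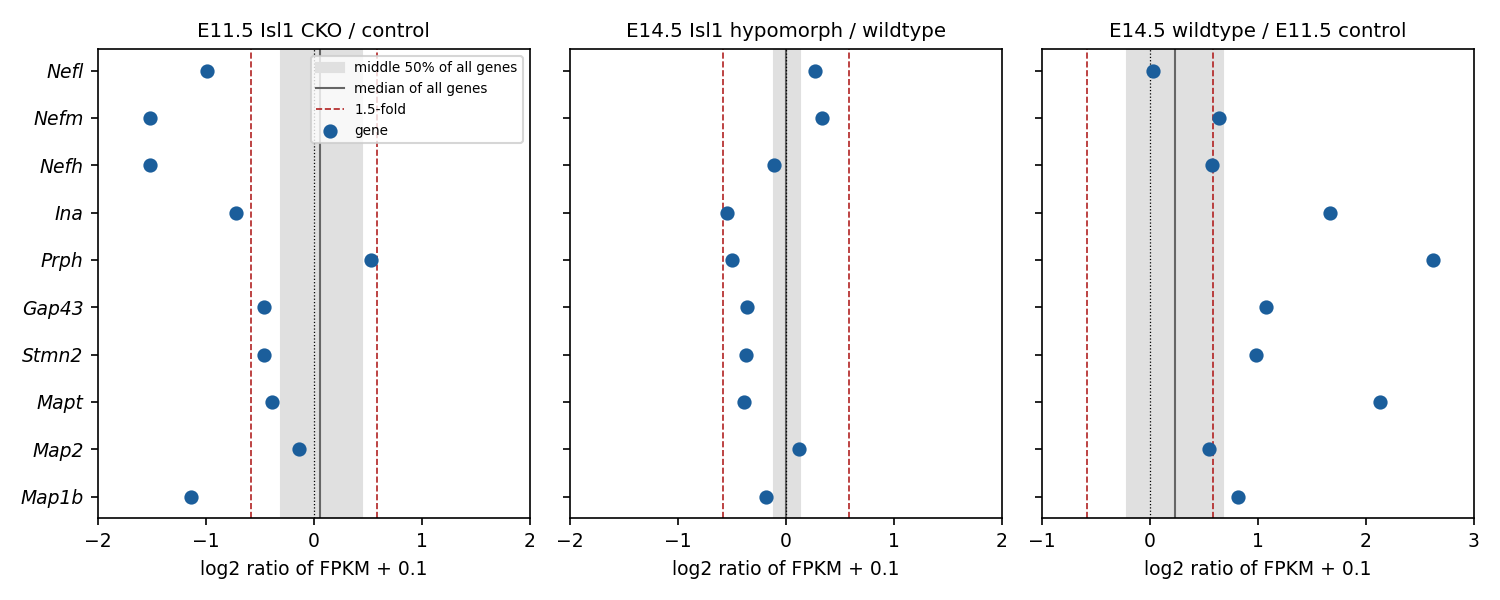
Log2 ratio of FPKM + 0.1 for the 10 genes in the 3 comparisons (E11.5 CKO over control, E14.5 hypomorph over wildtype, and E14.5 wildtype over E11.5 control), drawn over the middle range of all genes and the 1.5-fold limits; points have no error bars because each group is 1 value. *Nefm* has the ratios -1.52, 0.33, and 0.64, and *Prph* has 0.53, -0.50, and 2.63.

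At E14.5, when axons extend toward their targets, the question was the same for reduced *Isl1*. No gene of the 10 was 1.5-fold lower or higher in hypomorphic ganglia. That limit was passed downward by 2.12% and upward by 2.89% of 13413 genes. The 10 genes had a median log2 ratio of -0.27 and a range of -0.54 to 0.33, and the median of all genes was 0.003. The values of 7 genes were below wildtype and those of 3 genes, *Nefl*, *Nefm*, and *Map2*, were above.

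*Ina* and *Prph* had the lowest ratios. *Ina* was listed at 507 FPKM in wildtype and 348 FPKM in hypomorphic ganglia, a log2 ratio of -0.54, and 2.36% of genes had a lower one. *Prph* was at 921 and 651 FPKM, a log2 ratio of -0.50. Both were about 70% of wildtype, at 68.6% and 70.7%, and just inside the 1.5-fold limit. In contrast, *Nefl* was at 1027 and 1241 FPKM (log2 ratio 0.27) and *Nefm* at 1130 and 1424 FPKM (log2 ratio 0.33), and 91.5% of genes had a lower ratio than *Nefm*. *Nefh* was at 5.48 and 5.06 FPKM, a log2 ratio of -0.11. The filament genes thus lay on both sides of 0, with the light and medium chains on the other side from alpha-internexin and peripherin.

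*Mapt*, *Stmn2*, and *Gap43* lay close together at this stage. *Mapt* was at 188 and 143 FPKM (log2 ratio -0.39), *Stmn2* at 1182 and 916 FPKM (-0.37), and *Gap43* at 1235 and 962 FPKM (-0.36). All 3 had between 76.2% and 77.9% of the wildtype level. *Map1b* was at 360 and 318 FPKM (-0.18) and *Map2* at 94.6 and 103 FPKM (0.12). Relative to the pan-neuronal genes, *Nefh* (0.11) and *Map1b* (0.04) changed sign.

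Between the control ganglia of the 2 stages, 7 of 10 genes were at least 1.5-fold higher at E14.5, which were *Nefm*, *Ina*, *Prph*, *Gap43*, *Stmn2*, *Mapt*, and *Map1b*, and none was lower. Of 12666 genes in this comparison, 29.7% passed the limit upward and 12.8% downward. The 10 genes had a median log2 ratio of 0.90 and all genes of 0.24. The values come from tables that the authors normalized separately, the E11.5 controls carry Cre and a reporter and the E14.5 wildtype embryos do not, and both columns also serve in the genotype comparisons above, so the 3 comparisons are not independent.

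*Prph* stood at the top, from 149 to 921 FPKM, a log2 ratio of 2.63 that exceeded that of 99.1% of genes. *Mapt* came next, from 42.7 to 188 FPKM (2.14), followed by *Ina*, from 159 to 507 FPKM (1.67). The gene for the light chain was at the other end, with 1008 and 1027 FPKM and a log2 ratio of 0.03, which was below 0 when centred on all genes or scaled to equal upper quartiles. Between them lay *Gap43* (1.08), *Stmn2* (0.98), *Map1b* (0.81), *Nefm* (0.64), *Nefh* (0.57), and *Map2* (0.55), and the last 2 did not reach 1.5-fold. When the ratios were instead centred on pan-neuronal genes, which had a median of 1.09 themselves, *Ina* (0.57), *Prph* (1.53), and *Mapt* (1.04) stayed above 0, and *Nefl* (-1.07), *Nefm* (-0.45), *Nefh* (-0.52), *Map2* (-0.55), *Map1b* (-0.28), *Stmn2* (-0.11), and *Gap43* (-0.018) were below it. Of the former 3 genes, *Ina* did not pass 1.5-fold on that scale. Centring on all genes left 5 of the 7 genes past 1.5-fold, without *Nefm* (0.41) and *Map1b* (0.58), and equal upper quartiles left 6, without *Nefm* (0.50).

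The make-up of the filament transcripts differed among the 4 groups, and because it is taken within a group it does not depend on how the groups were scaled. Of the summed FPKM of *Nefl*, *Nefm*, *Nefh*, *Ina*, and *Prph*, *Nefl* made up 49.3% in E11.5 controls, 47.3% in CKO ganglia, 28.6% in E14.5 wildtype, and 33.8% in hypomorphic ganglia. *Nefm* made up 35.4%, 23.6%, 31.5%, and 38.8% in the same order. *Prph* made up 7.29%, 20.1%, 25.7%, and 17.7%, so its share in CKO ganglia lay nearer to that of E14.5 than to that of its own control. *Ina* made up 7.80%, 8.99%, 14.1%, and 9.48%, and *Nefh* never more than 0.179%. The sum of the 5 genes was 2044, 1072, 3591, and 3669 FPKM, so the hypomorphic ganglia had about the same total as wildtype with a different make-up.

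**Figure D3:**
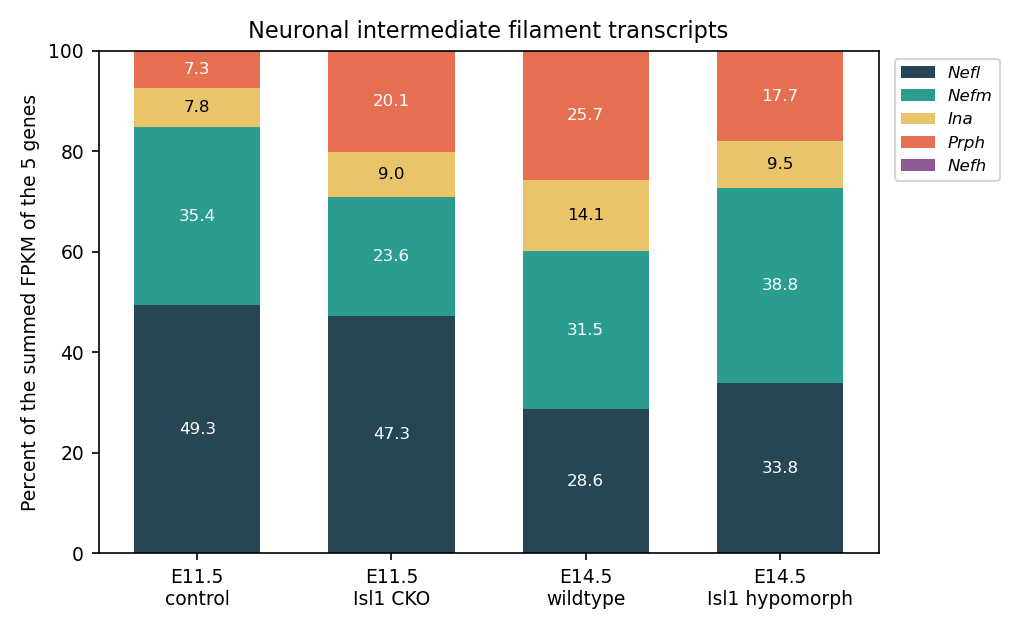
Stacked bars of the share (percent) of each of 5 filament genes in their summed FPKM, in the 4 groups. *Prph* takes 7.29% in E11.5 controls and 20.1% in CKO ganglia, and 25.7% in E14.5 wildtype and 17.7% in hypomorphic ganglia, while *Nefm* takes 35.4%, 23.6%, 31.5%, and 38.8%.

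Ratios between pairs of genes showed which genes kept step. *Gap43* per *Stmn2* was 0.979 in E11.5 controls, 0.981 in CKO, 1.05 in E14.5 wildtype, and 1.05 in hypomorphic ganglia, the most even of the 9 pairs computed. *Nefm* per *Nefl* was 0.718, 0.499, 1.10, and 1.15 in the same order. *Prph* per *Nefl* was 0.148, 0.424, 0.897, and 0.525, which is 2.87 times the control value in CKO ganglia and 0.585 times the wildtype value in hypomorphic ganglia. Peripherin thus stood higher against the light chain in the first mutant and lower in the second. *Map1b* per *Mapt* was 4.80, 2.86, 1.92, and 2.22, and *Map2* per *Mapt* was 1.52, 1.80, 0.504, and 0.718, so both MAPs stood lower against tau at E14.5 than at E11.5. *Nefl* per *Nes*, the intermediate filament of neural progenitors, was 49.6, 21.3, 52.9, and 56.6.

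Over the 3 log2 ratios together, *Gap43* and *Stmn2* were also the closest pair, with a Euclidean distance of 0.095. *Nefm* and *Nefh* were 0.453 apart and *Map1b* was nearest to *Nefh* (0.457). *Ina* was nearest to *Mapt* (0.595), as was *Prph*, though at 1.05, and *Nefl* and *Prph* were farthest apart at 3.11. Among 8575 other genes with at least 5 FPKM in every group, those closest to the median pattern of the 10 (log2 ratios of -0.59, -0.27, and 0.90) were *Gria4*, an AMPA receptor subunit (distance 0.046), *Fmnl2*, a formin that acts on actin (0.048), *Celf3*, a neuronal RNA-binding protein (0.063), *Ddx17*, an RNA helicase (0.075), and *Mtus1*, a microtubule-associated protein (0.090). The likeness rests on 3 ratios from 4 values per gene.

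Other genes of the axonal cytoskeleton were taken as lists for comparison, also with earlier results known. The counts of these and the later lists are to be read beside the shares of all genes past 1.5-fold. Those were 12.9% lower and 18.9% higher in CKO ganglia, and 2.12% and 2.89% in hypomorphic ganglia. Between the stages they were 12.8% lower and 29.7% higher at E14.5. Of 11 further stathmins, collapsin response mediators, and doublecortins, which bind tubulin, all 11 were below control in CKO ganglia at E11.5 and 5 of them by at least 1.5-fold, with a median log2 ratio of -0.54. *Stmn4* was lowest, at 117 and 52.0 FPKM (-1.17). *Stmn1*, the stathmin of dividing and young cells, was at 1161 and 799 FPKM (-0.54). At E14.5 none of the 11 passed 1.5-fold (median -0.18), and the lowest of the abundant ones was *Dpysl3*, a CRMP of growth cones, at 714 and 499 FPKM (-0.52). Between the stages 10 of 11 were higher in controls, *Stmn3* the most, from 150 to 597 FPKM (1.99), and *Stmn1* alone was lower, from 1161 to 123 FPKM (-3.23). *Stmn2* per *Stmn1* accordingly was 0.515 at E11.5 and 9.59 at E14.5 in controls.

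Spectrins, ankyrins, and plakins, which form the membrane skeleton of the axon, were the list with the lowest median at E11.5. Of 9 genes in the comparison all 9 were below control and 5 by at least 1.5-fold (median -0.72), with *Ank2* at 98.5 and 28.5 FPKM (-1.79). The abundant *Sptan1*, alpha-spectrin, was at 108 and 79.0 FPKM (-0.46). At E14.5 all 9 were below wildtype but none by 1.5-fold (median -0.21). Between the stages 7 of 9 were higher (median 0.77), and *Sptan1* went from 108 to 220 FPKM (1.02).

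Other microtubule-associated proteins were less uniform. Of 22 genes, 6 were lower and 1 higher in CKO ganglia (median -0.29), from *Map7d2* at 8.39 and 4.49 FPKM (-0.89) to *Map1lc3b*, an autophagy protein, at 78.8 and 132 FPKM (0.74). None passed 1.5-fold at E14.5, where 20 of 22 were below wildtype (median -0.13), and 11 were higher at E14.5 than at E11.5, *Map1a* the most, from 7.93 to 23.2 FPKM (1.54). Among 14 kinases and cofactors that act on tau and neurofilaments, 4 were lower and 1 higher in CKO ganglia (median -0.26). *Mark2*, a tau kinase, was at 14.7 and 9.10 FPKM (-0.69), *Gsk3b* at 45.4 and 30.2 FPKM (-0.59), and *Cdk5r2*, an activator of CDK5, at 5.78 and 9.36 FPKM (0.69). None of the 14 passed at E14.5 (median -0.12), and 9 were higher between the stages, with *Cdk5r2* the most, from 5.78 to 27.0 FPKM.

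Growth cone membrane and actin proteins had no common direction at E11.5. Of 16 genes 4 were lower and 3 higher in CKO ganglia (median -0.005), with *Ncam1*, an adhesion molecule, lowest at 65.6 and 20.8 FPKM (-1.65) and *Ablim1*, an actin-binding protein, highest at 7.04 and 20.9 FPKM (1.56). *Basp1*, a membrane protein akin to GAP-43, was at 328 and 190 FPKM (-0.79), a lower ratio than that of *Gap43* itself. At E14.5 *Ablim1* was the only one of the 16 past 1.5-fold, at 19.9 and 10.8 FPKM (-0.88), in the opposite direction to E11.5, and the median was -0.13. Between the stages 12 were higher, with *Basp1* going from 328 to 1058 FPKM (1.69), and the abundant cofilin gene *Cfl1* was at 621 and 513 FPKM (-0.28).

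Other intermediate filament genes, nuclear lamins included, had no common direction. Of 9 genes at E11.5, 4 were higher and 1 lower in CKO ganglia (median 0.52). *Krt8*, an epithelial keratin, was at 0.690 and 22.0 FPKM (4.80), and *Lmnb2*, a nuclear lamin, at 24.6 and 15.9 FPKM (-0.62). *Vim*, the gene for vimentin, had a ratio close to that of *Prph* at both stages, at 781 and 1123 FPKM (0.52) at E11.5 and at 1164 and 862 FPKM (-0.43) at E14.5. No gene of 7 passed 1.5-fold at E14.5 (median 0.09), and 3 of 7 were higher between the stages, *Des* the most, from 5.70 to 15.5 FPKM (1.42).

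A list of pan-neuronal genes was taken as a reference for genes that most neurons express, and its members spread from -1.87 to 0.65 at E11.5. Of 19 at E11.5, 6 were lower and 1 higher in CKO ganglia, with a median of -0.23, which is nearer to 0 than the -0.59 of the 10 cytoskeletal genes. *Elavl3*, an RNA-binding protein of neurons, was lowest at 61.6 and 16.8 FPKM (-1.87), while *Tubb3*, neuronal tubulin, was at 658 and 767 FPKM (0.22) and *Uchl1* at 594 and 426 FPKM (-0.48). At E14.5 1 of 20 was lower, *Syt1* at 71.0 and 40.8 FPKM (-0.80), and the median was -0.23, beside -0.27 for the 10 genes. Of 19 genes, 16 were higher between the stages and 1, *Elavl4*, was lower (-0.76). For the 9 sympathetic genes, 3 were lower in CKO ganglia (median -0.34), 1 in hypomorphic ganglia (-0.10), and 6 were higher and 1 lower between the stages (0.67).

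**Figure D4:**
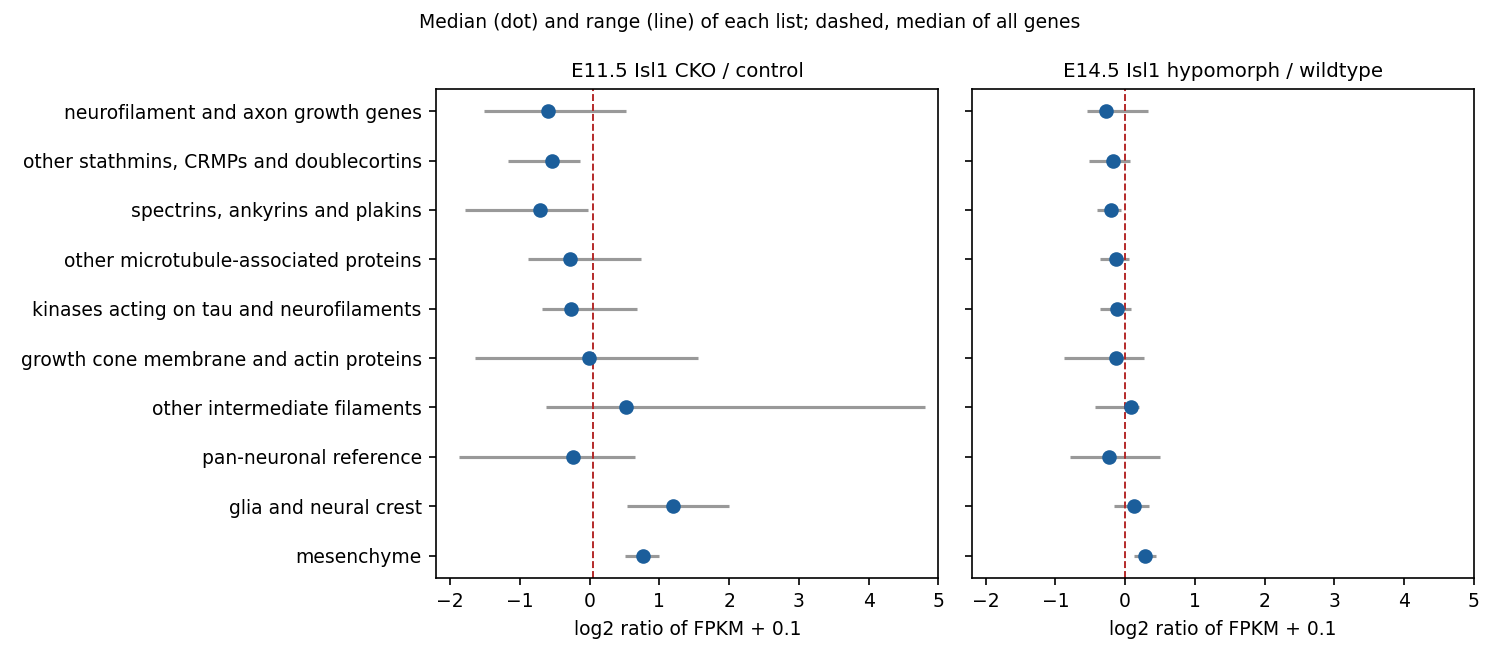
Median (dot) and range over genes (line) of the log2 ratio of FPKM + 0.1 for the 10 genes and 9 further lists in E11.5 CKO over control and E14.5 hypomorph over wildtype; the dashed line is the median of all genes, and ranges are over genes, not replicates. At E11.5 the medians run from -0.72 for spectrins, ankyrins, and plakins to 1.19 for glia and neural crest, with -0.59 for the 10 genes, and at E14.5 the medians drawn lie between -0.27 and 0.28; the endothelial, red blood cell, sympathetic, sensory, and motor lists are not drawn.

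How far these ratios depend on scaling was examined with 5 ways of making the groups comparable. At E11.5 *Nefl* ranged from -1.23 to -0.76, *Nefm* from -1.75 to -1.28, and *Map1b* from -1.38 to -0.91 over the 5, and *Prph* stayed above 0, from 0.29 to 0.76. Only *Map2* crossed 0, from -0.38 to 0.09, and *Ina* lost its call with pan-neuronal centring (-0.49). Leaving out the red blood cell genes put 8 of the 10 genes 1.5-fold or more below control, with all genes then at a median of -0.19. At E14.5 *Nefl* (0.27 to 0.50) and *Nefm* (0.33 to 0.56) stayed above 0 and *Ina* (-0.55 to -0.32) and *Prph* (-0.50 to -0.28) below it. *Nefl* and *Nefm* thus lay on the other side of 0 from *Prph* in both mutants under each of the 5 scalings, whereas *Nefh* crossed 0 at E14.5 (-0.12 to 0.11). A scaling shifts all genes by nearly the same amount, so it cannot test the distance between 2 genes.

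**Figure D5:**
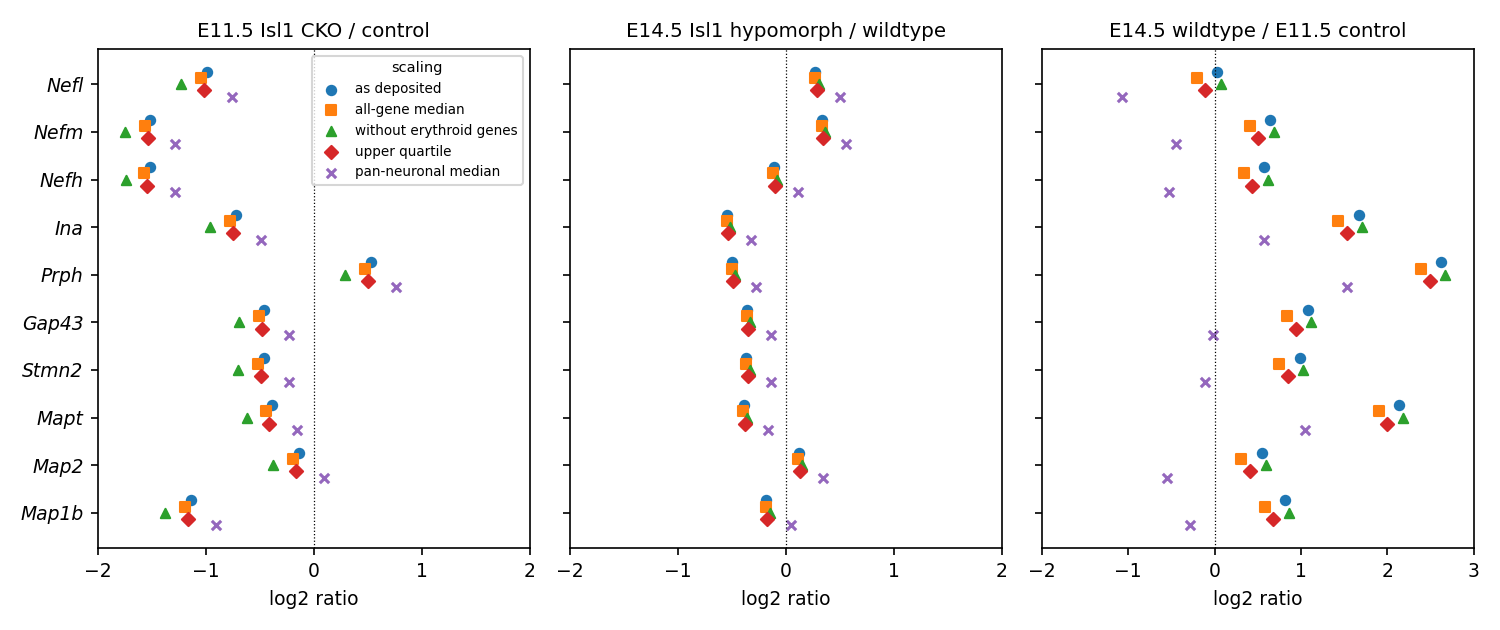
Log2 ratios of the 10 genes in the 3 comparisons under the FPKM as deposited and 4 other scalings (all-gene median, equal sum without red blood cell genes, upper quartile, pan-neuronal median). *Prph* stays between 0.29 and 0.76 at E11.5 and between -0.50 and -0.28 at E14.5, whereas *Nefl* runs from -1.07 to 0.07 between the stages.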

How the data were processed

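The authors made polyA RNA-seq libraries with a SMARTer kit and, by their methods, used TopHat for alignment to mm9, followed by cuffdiff. The submitters' processing notes instead name TopHat 1.3.1, Cuffdiff 1.3.0, Bowtie, and dm3, which is a fly build, although the gene symbols are those of mouse. The FPKM values deposited by the authors are 1 per gene and group, from 2 libraries, and every gene of a table reaches 1 FPKM in a group. The authors' fold change and p-value columns were not used. A log2 ratio was computed as mutant over control of FPKM + 0.1, and a 1.5-fold difference was counted. The filter of 1 FPKM in either group removed 61 genes between the stages and 0 elsewhere.

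The 10 genes and all lists were chosen with earlier results of these data known. The lists held stathmins, CRMPs and doublecortins, other microtubule-associated proteins, growth cone and actin proteins, spectrins, ankyrins and plakins, kinases, other intermediate filaments, and pan-neuronal, sympathetic, glial, sensory, motor, mesenchyme, endothelial, and erythroid markers. Of a list, the 2 most abundant genes and the lowest and highest ratio past 1.5-fold at 5 FPKM or more could be named; *Pou4f1*, *Neurog2*, *Nes*, and *Nt5c2* were added after their values were seen. The value of 1 gene that this rule names is not reported here. Alternatives were other pseudocounts, filters, fold limits, and scalings. The calculation was tested on simulated data. Gene positions are from GENCODE (mm9, with *Map2* and *Map1b* listed as *Mtap2* and *Mtap1b*) and promoters from RefSeq. Python 3.11.15, numpy 2.4.6, pandas 2.3.3, and matplotlib 3.10.9 were used.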

Additional observations from a re-analysis of the deposited data

Results flagged for a closer look

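For 4 of the 10 genes the mutant value lay on one side of control at E11.5 and on the other side at E14.5. The log2 ratio at E14.5 minus that at E11.5 was 1.27 for *Nefl*, 1.85 for *Nefm*, and 0.26 for *Map2*, whose values were below control in CKO and above wildtype in hypomorphic ganglia, and it was -1.03 for *Prph*, whose values were above control and then below wildtype. The difference was not tested, since each group is a single value over 2 libraries. Stage, allele, and the Cre and reporter background differ together between the 2 comparisons and cannot be told apart. Of the 4 genes, *Nefl* and *Nefm* passed 1.5-fold at E11.5 and none passed it at E14.5.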

How the results depend on the processing

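No paired analysis was possible because the tables hold 1 value per gene and group, and leaving out a library was not run for the same reason. No depth or spread is known and the authors' p-values were not used, so precision is not stated. At E11.5, 5 genes were lower and 0 higher: 8 were lower without the erythroid genes, 4 were lower (*Ina* lost, -0.49) and 1 higher (*Prph*) with centring on pan-neuronal genes, 3 were lower at a 2-fold limit, and 8 were lower and 1 higher at a 1.2-fold limit. At E14.5 a 1.2-fold limit gave 5 lower and 2 higher genes in place of 0 and 0. Between the stages, centring on pan-neuronal genes gave 1 lower and 2 higher in place of 0 and 7, and turned the median from 0.90 to -0.20, *Nefm* to -0.45, *Gap43* to -0.018, *Stmn2* to -0.11, and *Map1b* to -0.28; a 2-fold limit gave 4 higher, all-gene centring 5 (*Nefm* and *Map1b* lost), and equal upper quartiles 6 (*Nefm* lost). That centring lowered every ratio by the 1.09 median of those genes and put the median of all genes at -0.86. Of 84 counts and medians under the alternatives, 73 stayed within 1.5 times the count or within a log2 ratio of 0.585 of the median. Some of these could not change, since the 1 FPKM filter removed 0 genes at either stage and dropping it had no effect there. The limit for medians was also wide, as the E14.5 median moved from -0.27 to -0.046 with pan-neuronal centring and was still counted. The 73 is therefore not a measure of how firm the results are. The share of higher genes among those past 1.5-fold was 59.4% at E11.5, 33.9% without the erythroid genes, and 80.1% with pan-neuronal centring; at E14.5 it was 57.7% and, with that centring, 86.9%; between the stages it was 69.9%, 49.6% with all-gene centring, 58.6% with equal upper quartiles, and 5.78% with pan-neuronal centring. A minimum of 5 FPKM left out *Nefh* at E11.5.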
